A study of Mus musculus with 22 samples.

Results

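How did an added T cell antigen alter the transcripts of liver tumours driven by MYC and β-catenin? The comparison takes 6 tumours of the 22 in the series, all from its first set of 12. It sets 2 tumours with MYC, lucOS and β-catenin against 4 tumours with MYC, luc and β-catenin. They are the tumours of that set whose genotype labels read so. In this model lucOS is luciferase joined to model antigen peptides, and luc is luciferase alone. Both groups were untreated C57BL/6 mice given plasmids by hydrodynamic tail-vein injection, a rapid injection of a large volume that brings DNA into hepatocytes, and all 6 tumours carried MYC and the β-catenin construct. Each tumour is a bulk sample, a mixture of transformed hepatocytes and whatever other cells the piece held. Sex and age are not in the labels used here. Nor do the labels tie tumours to animals, and p-values then measure only the spread between these samples, which may be technical.

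Peptides of a foreign protein made inside a cell are shown on MHC class I molecules, where CD8 T cells can recognise them and kill the cell. Cross-presenting dendritic cells take up such proteins and start the T cell response, and the chemokine CCL5 takes part in bringing immune cells into a tumour. β-catenin carries the canonical Wnt signal. With TCF and LEF factors it switches on feedback genes such as Axin2 and Nkd1, and in the liver it sets the programme of hepatocytes around the central vein, among them Glul, Slc1a2 and Cyp2e1. The title of the series names β-catenin and escape from the immune system, and the comparison asks what the antigen alone changed in tumours with that driver.

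Sequencing depth ranged from 33.7 M to 50.6 M reads over genes in the 6 libraries, with 17307 to 17697 genes detected. Values below are normalized read counts, in which 1 read is worth 0.854 to 1.25. They are given for lucOS tumours 1 and 2 and then for luc tumours 1 to 4, or as both lucOS values against the range of the luc tumours. Differences are log2 values, lucOS minus luc, from a limma fit on the log2 of the value plus 1, so that a difference of 1 is a factor of 2. A gene is said to stand apart when both lucOS tumours lie above, or both below, all 4 luc tumours. The liver origin of the samples showed in Alb (albumin), which read 424299.5 and 486688 with lucOS and 499150.1, 447750.1, 498173 and 555044 with luc. Hnf4a, a master regulator of hepatocytes, read 35128 and 22679 with lucOS and 42011, 31463, 36706 and 26549 with luc.

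The mouse genes Myc, Ctnnb1 and Trp53 overlapped between the groups. Whether their counts include reads of the injected constructs was not tested. Myc, counted on the mouse gene, read 82.9 and 557 with lucOS and 147, 125, 363 and 295 with luc. Ctnnb1, the gene of β-catenin, read 22465 and 16425 with lucOS and 19747, 15489, 22134 and 16289 with luc. Trp53 read 4994 and 3296 with lucOS and 4789.9, 4809, 3689 and 4637 with luc. Myc was lowest and highest in the 2 lucOS tumours, and for all 3 genes the interval of the difference included 0. It was 0.029 (95% interval -1.85 to 1.91, unadjusted p = 0.97) for Myc, 0.076 (95% interval -0.38 to 0.54, unadjusted p = 0.72) for Ctnnb1 and -0.14 (95% interval -0.63 to 0.36, unadjusted p = 0.56) for Trp53. The lucOS construct itself is not a mouse gene, and its level was not analysed here.

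No gene of the 16108 tested passed an adjusted p of 0.05 in limma (0%), and the lowest adjusted p was 1. At an unadjusted p under 0.05 there were 222 genes (1.38%). Of these, 96 (0.596% of all genes) were higher and 126 (0.782%) lower with lucOS. edgeR on the recovered reads also called 0 genes, with 405 at an unadjusted p under 0.05 (2.51%). DESeq2 on the same reads called 18 of the 15941 genes to which it gave an adjusted p (0.113%), 6 higher and 12 lower, with 558 at an unadjusted p under 0.05 (3.46%). Among the lower were Slc1a2, Nkd1, Slc22a3, Slc16a10, Mme, Pnliprp1, Lin7a, Sds, Slc4a1, Syde2 and BC089597. With these few tumours the median 95% interval reached 0.87 log2 units to either side, a factor of 1.83. Higher and lower below thus describe genes by their values, without a call in limma.

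Groups stood apart in 1022 genes (6.34%), 547 with lucOS above (3.4%) and 475 with lucOS below (2.95%). The last 2 shares are the background for the counts of list members apart given below. Values can separate by chance alone in groups this small. Interchangeable tumours in groups of 2 and 4 would on average give larger shares than those above. How often they do depends on the group sizes, so shares given below for groups of other sizes are not comparable with these. Tumours of 1 group were as unlike each other as tumours of different groups. The median gene differed by 0.47 log2 units between the 2 lucOS tumours. Over the 6 pairs of luc tumours that median ran from 0.208 to 0.464. Over the 8 pairs of 1 lucOS and 1 luc tumour it ran from 0.291 to 0.523. Luc tumours 2 and 4 were the closest pair, and lucOS tumour 2 and luc tumour 1 the farthest. LucOS tumour 1 lay closer to luc tumour 3 than to the other lucOS tumour.

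Some genes of the pericentral programme had lower values in both lucOS tumours, and others overlapped. Glul (chr1:153899929-153909723, plus strand, GRCm38), glutamine synthetase, makes glutamine from glutamate and ammonia. It read 43302 and 13203 with lucOS and 150109.9, 58183, 146806 and 72833 with luc. For Glul the difference was -2.04 (95% interval -3.19 to -0.88, unadjusted p = 0.0025). Slc1a2 (chr2:102658239-102790784, plus strand) takes glutamate into the cell and read 780.5 and 401 with lucOS and 11430.3, 7386, 7412 and 9834 with luc. For Slc1a2 the difference was -3.98 (95% interval -6.31 to -1.66, unadjusted p = 0.003). DESeq2 gave Slc1a2 an adjusted p of 0.018. Both lucOS tumours were below every luc tumour in each gene, and in Slc1a2 the 4 luc tumours lay close together. Oat, ornithine aminotransferase, read 18726 and 4796 with lucOS and 38266, 25992, 54279 and 25902 with luc. For Oat the difference was -1.86 (95% interval -3.12 to -0.60, unadjusted p = 0.0077). Slc13a3, a dicarboxylate transporter, read 191 and 213 with lucOS and 6997, 693, 1160.1 and 809 with luc. For Slc13a3 the difference was -2.85 (95% interval -4.86 to -0.84, unadjusted p = 0.0095). In Slc13a3 luc tumour 1 was far above the rest, and in Oat lucOS tumour 2 was far below. Without lucOS tumour 2 the difference was -1.18 for Glul and -0.88 for Oat. The miRNA gene Mir8114 (chr1:153899926-153900036) overlaps the first part of Glul on the same strand and read 2727 and 767 against 3643 to 10089, so its reads cannot be separated from those of Glul.

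Of the 18 pericentral genes 0 of the 18 tested stood apart above the luc tumours and 6 below, beside 2.95% of all genes below, and 12 overlapped. Differences were below 0 for 13 and above 0 for 5. The median difference of the list was -0.63, beside 8.2e-05 over all genes. The other genes below were Rhbg, an ammonium transporter (218 and 349 against 356 to 1406), and Cyp1a2 (2982 and 1727 against 5034 to 19943). The most abundant member did not stand apart. This was Cyp2e1, which oxidises ethanol and many small solvents, and it read 77849.9 and 99245 with lucOS and 134707, 80758, 169915 and 98699.7 with luc. For Cyp2e1 the difference was -0.40 (95% interval -1.40 to 0.60, unadjusted p = 0.4). Gulo, the last enzyme of vitamin C synthesis, read 25490.3 and 25684 against 22794 to 45759.7. Cyp7a1, the rate-limiting enzyme of bile acid synthesis, read 23449.7 and 15656 against 4570.1 to 24066. Pericentral genes thus ran from clear separation in Slc1a2 to overlap in Cyp2e1, Gulo and Cyp7a1.

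Among the feedback genes of Wnt signalling, Nkd1 had the widest gap. Nkd1 (chr8:88521342-88594887, plus strand), which restrains the pathway at Dishevelled, read 23.5 and 81 with lucOS and 616, 598, 159 and 544 with luc. For Nkd1 the difference was -3.24 (95% interval -5.08 to -1.41, unadjusted p = 0.0024). DESeq2 gave Nkd1 an adjusted p of 0.034. Luc tumour 3 was the luc tumour nearest to the lucOS tumours. Notum, an enzyme that inactivates Wnt ligands, read 2056 and 2006 with lucOS and 12165, 3371, 3320.0 and 2479.7 with luc. Lef1, a DNA-binding partner of β-catenin, read 1.02 and 11.2 with lucOS and 122, 24.8, 11.6 and 19.4 with luc. Apcdd1, a Wnt inhibitor, read 2.05 and 12.5 with lucOS and 17, 125, 19.7 and 12.9 with luc. In these 3 the lucOS tumours were below all luc tumours by a narrow gap.

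The most used readout of the pathway overlapped. Axin2, a scaffold of the β-catenin destruction complex, read 1456 and 868 with lucOS and 3586, 1074, 2643 and 1065 with luc. For Axin2 the difference was -0.69 (95% interval -2.05 to 0.67, unadjusted p = 0.29). Lgr5, a receptor of R-spondins, read 579 and 371 with lucOS and 1487, 390.0, 1454 and 741 with luc. For Lgr5 the difference was -0.94 (95% interval -2.57 to 0.70, unadjusted p = 0.23). In both genes luc tumours 1 and 3 were the high ones, and luc tumours 2 and 4 came close to the lucOS tumours. The ligases that remove Wnt receptors followed them, Rnf43 at 992 and 146 against 729 to 4831 and Znrf3 at 1350.2 and 812 against 1291 to 4431. Ccnd1, cyclin D1, read 1001 and 1658 against 1019.5 to 19055, and Tbx3, a transcription factor, 3869 and 7942 against 1811 to 4804 with lucOS tumour 2 the highest of the 6. Of 18 Wnt genes 0 of the 16 tested stood apart above the luc tumours and 4 below, beside 2.95% of all genes below. Their median was -1.04, and from -1.21 to -0.62 with 1 tumour left out.

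**Figure D1:**
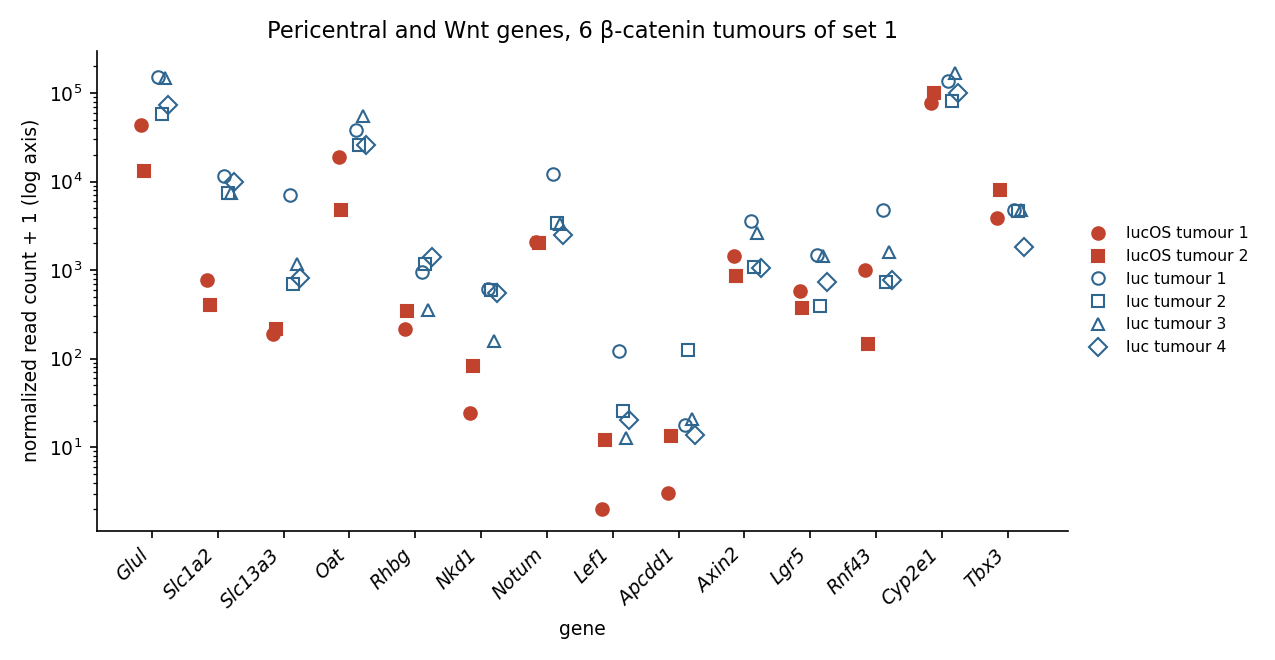
Normalized read count plus 1 (log axis) of 14 pericentral and Wnt genes in the 2 lucOS tumours (filled red) and 4 luc tumours (open blue) of the first set. For Glul, Slc1a2, Slc13a3, Oat, Rhbg, Nkd1, Notum, Lef1 and Apcdd1 both lucOS tumours lie below every luc tumour, while Axin2, Lgr5, Rnf43, Cyp2e1 and Tbx3 overlap.

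To show a promoter of this group beside one that did not separate, the 250 bases before the annotated start were searched on both strands. The letters sought were CTTTGAA and CTTTGAT, forms of the core that TCF and LEF factors bind. Other forms of it were not sought. RefSeq sequences on GRCm38.p6 were at hand for 20 of the 32 genes on the pericentral and Wnt lists. They had 27 windows, since a gene can have several starts, and a match was present in 6 of these (22.2%), beside 7.48% of all 32851 windows. Each lay in another gene: Cyp1a2, Cyp2e1, Lect2, Slc1a2, Sp5 and Tnfrsf19. Slc1a2 and Cyp2e1 are printed here, with the match in capitals. The window of Slc1a2 (chr2:102706188-102706437, plus strand) lies within the annotated span of the gene, and its match reads CTTTGAT on the opposite strand. The window of Cyp2e1 (chr7:140763569-140763818, plus strand) holds CTTTGAA.
Slc1a2: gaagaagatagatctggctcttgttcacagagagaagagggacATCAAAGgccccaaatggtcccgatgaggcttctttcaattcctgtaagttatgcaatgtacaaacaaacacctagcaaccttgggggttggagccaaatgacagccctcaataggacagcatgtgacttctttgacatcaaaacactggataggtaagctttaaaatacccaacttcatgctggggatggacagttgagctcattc
Cyp2e1: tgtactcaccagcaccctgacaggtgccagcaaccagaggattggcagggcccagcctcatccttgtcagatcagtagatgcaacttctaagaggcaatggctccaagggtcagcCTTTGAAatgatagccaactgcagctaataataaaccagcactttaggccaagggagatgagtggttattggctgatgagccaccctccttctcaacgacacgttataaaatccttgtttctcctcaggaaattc
Slc1a2 stood apart and Cyp2e1 did not, and both windows held a match. No match was found for Glul, Nkd1, Axin2, Oat and Slc13a3, which says only that these letters are not in any window searched.

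Several periportal genes, which mark the opposite end of the liver lobule, were low in the lucOS tumours too. Pck1, which commits carbon to gluconeogenesis, read 9523 and 1365 with lucOS and 37285, 9752, 35133 and 21765 with luc. For Pck1 the difference was -2.67 (95% interval -4.89 to -0.45, unadjusted p = 0.022). LucOS tumour 1 came close to luc tumour 2, and without lucOS tumour 2 the difference was -1.27. Sds, serine dehydratase, read 19.4 and 16.2 with lucOS and 423, 467, 20.6 and 730.1 with luc. For Sds the difference was -3.66 (95% interval -6.41 to -0.90, unadjusted p = 0.014). Luc tumour 3 was nearly as low as the lucOS tumours. Cyp2f2 read 96.2 and 293 with lucOS and 1219, 1402, 365 and 1070.3 with luc. For Cyp2f2 the difference was -2.42 (95% interval -4.41 to -0.43, unadjusted p = 0.021). Hal, histidine ammonia lyase, read 92.1 and 227 with lucOS and 2456, 864, 106 and 991 with luc, with luc tumour 3 between the 2 lucOS tumours. The abundant urea cycle genes overlapped: Cps1, the entry enzyme, read 209894 and 167516 with lucOS and 97127, 257628, 242427 and 180083 with luc, and Ass1 38802 and 48002 against 45564 to 93698. Tat, which breaks down tyrosine, read 29129.8 and 10931 against 19588 to 68632. Of the periportal genes 0 of the 17 tested stood apart above the luc tumours and 3 below, beside 2.95% of all genes below. At an unadjusted p under 0.05, 5 were lower and 0 higher, beside 0.782% and 0.596% of all genes. The median was -0.53.

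Cytochrome P450 genes of drug metabolism were low in part. Cyp2b9 read 8.18 and 42.4 with lucOS and 360.3, 515, 95.8 and 1262 with luc. For Cyp2b9 the difference was -4.28 (95% interval -7.60 to -0.97, unadjusted p = 0.016). Cyp2b13 read 20.5 and 26.2 with lucOS and 205, 133, 44.8 and 384 with luc. For Cyp2b13 the difference was -2.62 (95% interval -4.68 to -0.57, unadjusted p = 0.017). Both lucOS tumours were the lowest for these, and luc tumour 3 was the next. Cyp2c54 read 6.14 and 53.6 with lucOS and 195, 393, 31.3 and 659 with luc, where luc tumour 3 lay below lucOS tumour 2, with a difference of -3.35. The abundant Cyp3a11, which handles many drugs, read 103497 and 103701 with lucOS and 26285, 59415, 137004 and 53243 with luc, and Cyp2a5 55595 and 26904 against 22271 to 99762: both overlapped. Of the P450 genes 0 of the 26 tested stood apart above the luc tumours and 6 below, with a median of -0.27. Genes of 1 subfamily are close in sequence, so reads can be split between them. Abcc3, an exporter of bile acids and glucuronides, read 1042 and 3947 with lucOS and 25239, 4867, 7051 and 5382 with luc. For Abcc3 the difference was -2.03 (95% interval -3.78 to -0.27, unadjusted p = 0.028).

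The general hepatocyte lists had medians near 0. Among secreted proteins of mature hepatocytes 0 of the 16 tested stood apart above the luc tumours and 0 below, and the median was 0.022. The most abundant beside Alb were Apoe (402716 and 393799 against 321176 to 582613) and Trf, transferrin (311283 and 419462 against 253609.7 to 427866). Hepatocyte transcription factors had a median of 0.002 over 16 genes, with Cebpa at 11573 and 22184 against 11511 to 15920.4 and Ppara at 9479 and 6301 against 7464 to 12201. Members away from 0 were Onecut2, at 89 and 473 with lucOS and 6099, 1019, 400.1 and 1391 with luc, and Nr0b2, which represses bile acid synthesis, at 387 and 154 with lucOS and 3845, 538, 659 and 472 with luc. In both luc tumour 1 was far above the rest. For Onecut2 the difference was -2.72 (95% interval -5.29 to -0.16, unadjusted p = 0.039).

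Immune genes, where an antigen would be looked for first, mostly overlapped, and their intervals were wide. Medians of the 12 immune lists ran from -1.16 to 0.16, and 8 of the 12 changed sign when 1 tumour was left out. Ccl5 (chr11:83525778-83530518, minus strand) read 29.7 and 31.1 with lucOS and 30.6, 37.6, 34 and 40.7 with luc. For Ccl5 the difference was -0.22 (95% interval -1.67 to 1.23, unadjusted p = 0.75). Cd3e, a chain of the T cell receptor complex, read 11.3 and 9.97 with lucOS and 12.5, 16.2, 9.85 and 18.5 with luc. For Cd3e the difference was -0.36 (95% interval -2.14 to 1.42, unadjusted p = 0.67). Cd8a, the coreceptor of cytotoxic T cells, read 12.3 and 8.72 with lucOS and 12.5, 15.4, 2.69 and 7.39 with luc. For Cd8a the difference was 0.32 (95% interval -1.35 to 1.99, unadjusted p = 0.68). The groups overlapped in all 3 genes, and each interval reaches beyond a factor of 2 on both sides, so a difference of that size was not detectable. T cell transcripts were scarce in all 6 tumours. Cd3g stayed between 1.13 and 12.9 and Cd8b1 between 1.02 and 7.68, where 3 reads are worth 2.56 to 3.74. In bulk tumours, fewer cells of a type and less RNA per cell cannot be told apart.

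Of 22 T cell genes 0 of the 19 tested stood apart above the luc tumours and 1 below (Cd8b1, at 1.02 and 2.49 with lucOS and 3.4, 7.68, 4.48 and 5.54 with luc), and the median was -0.26. The most abundant members were Tcf7, a factor of T cells that Wnt-driven cells also express (533 and 372 against 484 to 1268), Cd247 (245 and 201 against 231 to 318) and Cd4 (75.7 and 122 against 19.3 to 91.3). Cd247 read far above Cd3e and Cd3g, chains of the same receptor complex, and which cells held its reads was not tested. Genes of cell killing mostly overlapped between the groups. Gzmb, granzyme B, read 6.14 and 11.2 with lucOS and 7.93, 13.7, 4.48 and 13.9 with luc. For Gzmb the difference was -0.12 (95% interval -1.73 to 1.49, unadjusted p = 0.87). Prf1, perforin, read 1.02 and 3.74 with lucOS and 2.27, 8.54, 3.58 and 4.62 with luc. Of 17 cytotoxic and NK cell genes 0 of the 14 tested stood apart above the luc tumours and 1 below (Nkg7, at 5.11 and 7.47 with lucOS and 7.93, 11.9, 9.85 and 18.5 with luc), with a median of -0.26. The most abundant of them were Gzmm (29.7 and 12.5 against 15.4 to 38.8), Ctsw (35.8 and 9.97 against 20.6 to 31.4) and Klrk1 (11.3 and 16.2 against 13.4 to 27.3). Ifng, interferon γ itself, had at most 1 read in any of the 6 libraries and was not tested.

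Checkpoint and regulatory T cell genes differed in direction among themselves. Pdcd1, which encodes PD-1, read 7.16 and 9.97 with lucOS and 2.27, 5.12, 3.58 and 3.7 with luc. Tigit, another inhibitory receptor, read 5.11 and 6.23 with lucOS and 2.27, 3.41, 4.48 and 4.62 with luc. Both stood above the luc tumours, at a few reads per library. Tox, a regulator of exhausted T cells that other cells can also make, read 53.2 and 141 with lucOS and 1239, 245, 411 and 159 with luc. For Tox the difference was -2.10 (95% interval -3.98 to -0.23, unadjusted p = 0.031). Btla, an inhibitory receptor of lymphocytes, read 12.3 and 8.72 with lucOS and 20.4, 20.5, 12.5 and 41.6 with luc. Tox and Btla stood below. Cd274, the gene of PD-L1, read 114 and 434 with lucOS and 116, 198, 124 and 136 with luc, high in lucOS tumour 2 alone. Of 18 genes 2 of the 16 tested stood apart above the luc tumours and 2 below, with a median of 0.16 that was -0.35 without lucOS tumour 2. The most abundant member was 4632428N05Rik, the older symbol of Vsir, the VISTA gene (290.5 and 969 against 227 to 900.5). Tnfrsf4 was high in luc tumour 1 alone (49.1 and 21.2 against 36.7 to 1951).

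Markers of cross-presenting dendritic cells overlapped in part. Clec9a, a receptor for dead cells, read 52.2 and 56.1 with lucOS and 44.2, 59.7, 60.9 and 102 with luc. Xcr1, a chemokine receptor, read 18.4 and 21.2 with lucOS and 20.4, 19.6, 24.2 and 25.9 with luc. Itgae, which encodes CD103, read 14.3 and 9.97 with lucOS and 30.6, 35, 19.7 and 41.6 with luc. Flt3, the receptor of a growth factor that dendritic cells need, read 14.3 and 6.23 with lucOS and 14.7, 23, 26 and 17.6 with luc. Itgae and Flt3 stood below the luc tumours at low values, and Clec9a and Xcr1 did not. Of the dendritic cell genes 0 of the 16 tested stood apart above the luc tumours and 2 below, with a median of -0.11. The most abundant were Bst2 (5402 and 3923 against 3388 to 6199.5), Irf8 (444 and 977 against 359 to 713) and Fscn1 (487 and 1125 against 197 to 606), which other cells also make. B cell markers were scarcer, with Cd79a at 13.3 and 9.97 with lucOS and 13.6, 18.8, 19.7 and 41.6 with luc. Of the B and plasma cell genes 0 of the 8 tested stood apart above the luc tumours and 3 below, among them Cd79a and Igj, an immunoglobulin joining chain (13.3 and 6.23 against 16.1 to 50.8).

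Antigen presentation genes overlapped in nearly all members. H2-K1, the class I heavy chain that presents the best-known ovalbumin peptide in this strain, read 16189 and 20941 with lucOS and 17532, 20421, 15419 and 24973 with luc. For H2-K1 the difference was -0.066 (95% interval -0.87 to 0.74, unadjusted p = 0.86). B2m, its light chain, read 12457 and 16026 against 9417 to 15922. Of the class I genes 0 of the 18 tested stood apart above the luc tumours and 1 below (Erap1, which trims peptides, at 2186 and 2307 against 2323 to 3829). Their median was -0.083, with a median interval of 0.92 log2 units to either side. All 11 class II genes overlapped, with a median of -0.023. H2-Aa read 499 and 586 with lucOS and 286, 316, 657 and 973 with luc, and the invariant chain Cd74 1512 and 1438 against 918 to 2883.

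Interferon-driven genes had more differences below 0 than above, and their intervals were wide. The median 95% interval reached 1.5 log2 units to either side for the interferon γ genes and 1.12 for the type I genes. Cxcl9, a T cell chemokine induced by interferon γ, read 147 and 126 with lucOS and 292, 144, 52.8 and 205 with luc. For Cxcl9 the difference was -0.10 (95% interval -3.01 to 2.80, unadjusted p = 0.94). Of the interferon γ genes 0 of the 15 tested stood apart above the luc tumours and 1 below (Batf2, at 6.14 and 9.97 against 17.6 to 26.1). Differences were below 0 for 13 of them and above 0 for 2, with a median of -0.33. Iigp1, Irf1 and Irgm2 were the most abundant, Irf1 at 1350.2 and 1428 against 956 to 1514. Of the type I interferon genes 0 of the 23 tested stood apart above the luc tumours and 2 below. There 19 were below 0 and 4 above, with a median of -0.16 that was 0.083 at the highest when 1 tumour was left out. Ifi27 read 2823 and 1517 with lucOS and 3950.2, 6427, 3034 and 3229 with luc. For Ifi27 the difference was -0.94 (95% interval -1.81 to -0.069, unadjusted p = 0.037). Ifi27 overlaps Ifi27l2a, so reads may be shared between them. Chemokine genes had a median of -0.21, and of the 26 listed 0 of the 21 tested stood apart above the luc tumours and 3 below. The lower ones were Ccl8, Ccl22 and Ccl24, with Ccl24, which attracts eosinophils, at 1.02 and 11.2 with lucOS and 13.6, 31.6, 11.6 and 41.6 with luc. Cxcl12, the most abundant chemokine, read 2691 and 2935 against 1689.6 to 4429.8.

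**Figure D2:**
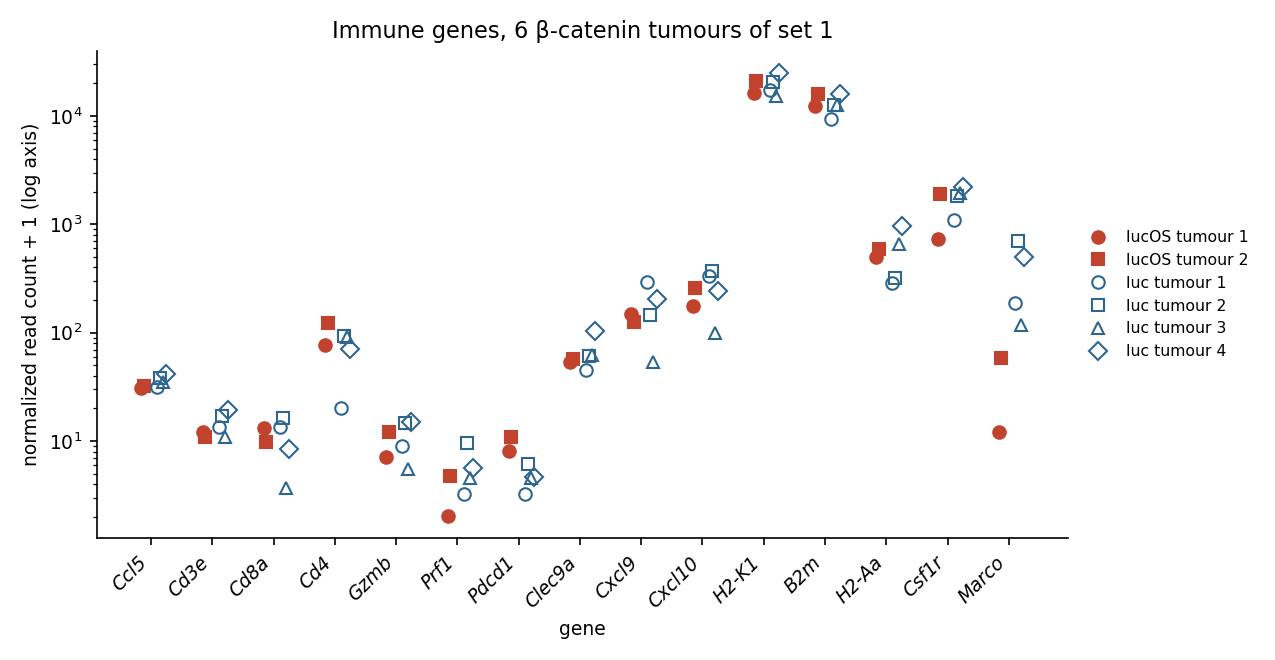
Normalized read count plus 1 (log axis) of 15 immune genes in the 2 lucOS tumours (filled red) and 4 luc tumours (open blue) of the first set. Of the genes drawn, Pdcd1 lies higher and Marco lower in both lucOS tumours than in every luc tumour, and Ccl5 reads 29.7 and 31.1 against 30.6 to 40.7.

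Some macrophage genes were lower in both lucOS tumours and most overlapped. Marco, a scavenger receptor, read 11.3 and 57.3 with lucOS and 187, 699.8, 116 and 498 with luc. For Marco the difference was -3.47 (95% interval -6.29 to -0.65, unadjusted p = 0.02). Clec4f, a lectin of mouse Kupffer cells, read 100.2 and 227 with lucOS and 839.7, 1304, 363 and 2872 with luc. Cd163 (62.4 and 142 against 173 to 589.7), Timd4 (17.4 and 19.9 against 23.3 to 192) and Vsig4 (47.1 and 193 against 238 to 755) stood below as well. The other 15 overlapped. Csf1r, the receptor that macrophages need, read 725 and 1892 with lucOS and 1088, 1838, 1965 and 2231 with luc, lowest in lucOS tumour 1. C1qc read 1559.9 and 3585 against 1441 to 3719, Lyz2 1624 and 2949 against 1293 to 5507 and Cd5l, also made by Kupffer cells, 1670.4 and 3021 against 2801 to 5110.0. Of the macrophage genes 0 of the 20 tested stood apart above the luc tumours and 5 below, with a median of -0.40 that was 0.28 without lucOS tumour 1.

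Red blood cell genes were the list with the lowest median, -2.62, and 0 of the 9 tested stood apart above the luc tumours and 6 below. Hbb-bs, a β globin, read 518 and 1732 with lucOS and 8345, 5497, 2875 and 2619 with luc. For Hbb-bs the difference was -2.19 (95% interval -4.15 to -0.22, unadjusted p = 0.032). Hba-a1, an α globin, read 213 and 632 with lucOS and 3171, 4685, 1493 and 1250.5 with luc. For Hba-a1 the difference was -2.64 (95% interval -4.57 to -0.71, unadjusted p = 0.012). Hba-a2 held the same values. With the pair counted once, 5 of 8 genes stood below, with a median of -2.40. Slc4a1, the anion exchanger of red cells, read 4.09 and 6.23 with lucOS and 47.6, 1427, 20.6 and 66.5 with luc, with luc tumour 2 far above the rest. The summed value of the list was 1949.6 and 3592 with lucOS against 6162 to 20066 with luc. Red cell transcripts thus moved with the groups, and their part in the other differences was not tested.

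Luc tumour 2 was also the highest in some genes of immature neutrophils. Mpo, myeloperoxidase, read 2.05 and 0 with lucOS and 14.7, 149, 11.6 and 34.2 with luc. Ngp, a granule protein, read 1.02 and 1.25 with lucOS and 7.93, 163, 2.69 and 25 with luc. Both stood below in the lucOS tumours. Prtn3, another gene of these cells, did not follow them. It read 44 and 194 with lucOS and 2781, 164, 63.6 and 184 with luc. The markers of mature neutrophils, S100a8 (5.11 and 88.5 against 39.4 to 121) and S100a9 (12.3 and 127 against 37.4 to 198), overlapped, and they were low in lucOS tumour 1. Of the neutrophil genes 0 of the 13 tested stood apart above the luc tumours and 2 below. Their median was -1.16, and 0.20 without lucOS tumour 1.

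In stroma and vessels the 2 lucOS tumours were far apart. Col1a1, a fibrillar collagen, read 3753 and 39230.4 with lucOS and 3142, 3724, 18456 and 8838 with luc. Col3a1 read 6003 and 39372 with lucOS and 6089, 4600.1, 17434 and 14816 with luc. Pdgfrb, a receptor of stellate cells and pericytes, read 421 and 3142 with lucOS and 290.1, 575, 1055 and 765 with luc. LucOS tumour 2 was the highest of the 6 for each, and lucOS tumour 1 was near the low end. The collagen list had a median of 0.68 with no member of 18 apart. Without lucOS tumour 2 it was -0.72, and without lucOS tumour 1 it was 1.98. LucOS tumour 2 was also the highest for the endothelial genes Pecam1 (1312 and 4278 with lucOS and 716, 1224, 1939 and 1135 with luc) and Cdh5 (1893 and 5553 against 944 to 2576).

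Some genes of sinusoidal and central vein endothelium went the other way. Wnt2, a Wnt ligand of these cells, read 4.09 and 9.97 with lucOS and 21.5, 11.1, 15.2 and 46.2 with luc. Wnt9b, another, read 12.3 and 6.23 with lucOS and 48.7, 21.3, 26 and 75.8 with luc. Clec4g, a lectin of liver sinusoids, read 17.4 and 66 with lucOS and 125, 199.7, 81.5 and 311 with luc. These were the 3 endothelial genes of 17 that stood below the luc tumours, the ligands at low values. Rspo3, the R-spondin of the central vein, read 3.07 and 47.3 with lucOS and 26.1, 34.1, 34 and 90.6 with luc and overlapped. Bile duct markers were scarce, with Krt19 at 1.02 and 9.97 with lucOS and 15.9, 20.5, 30.4 and 90.6 with luc. Among bile duct genes 0 of the 9 tested stood apart above the luc tumours and 2 below, with a median of -1.01. The pancreatic marker Cpa1 reached at most 2.05 in any tumour.

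**Figure D3:**
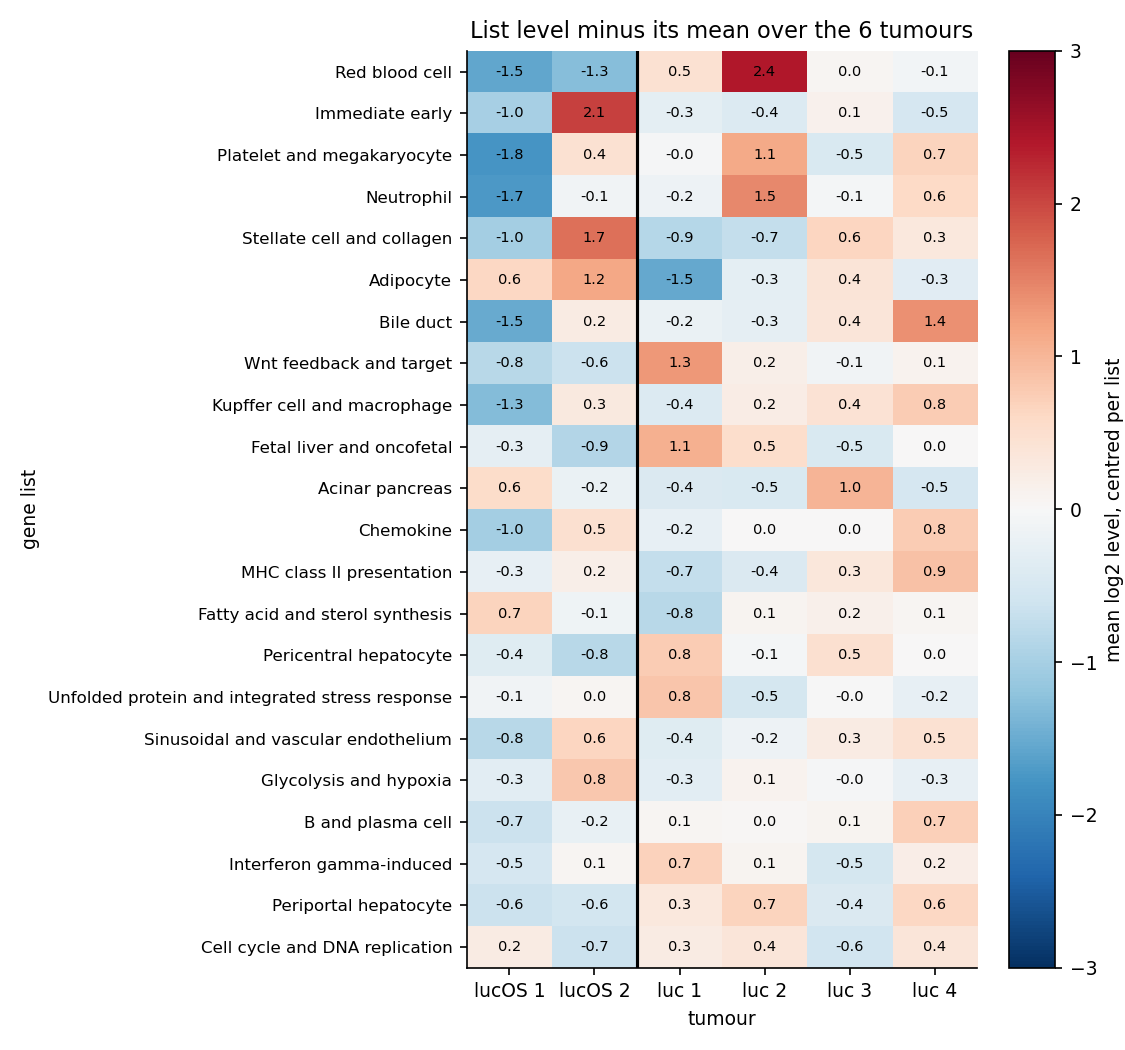
Mean log2 level of the tested members of a gene list in each tumour, minus the list's mean over the 6 tumours, for the 22 lists that varied most (red higher, blue lower; the black line divides lucOS from luc). The red blood cell, Wnt and pericentral lists are blue in both lucOS tumours, whereas the immediate early and collagen lists are blue in lucOS tumour 1 and red in lucOS tumour 2.

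Individual tumours carried programmes of their own. Counting genes that reached 50 in 1 tumour and exceeded 10 times the highest of the other 5, there were 1 in lucOS tumour 1 and 31 in lucOS tumour 2. Luc tumours 1 to 4 had 78, 11, 4 and 2. LucOS tumour 2 held Fos, an immediate early factor, at 3063 against at most 203, and Adm, adrenomedullin, at 2901 against at most 235. Rhpn1 read 12.3 and 2464 with lucOS and 7.93, 10.2, 4.48 and 9.24 with luc. DESeq2 gave Rhpn1 an adjusted p of 7.9e-05, with lucOS tumour 1 just above the luc range. The 6 genes that DESeq2 called higher, among them Dnaaf3, Dusp18, Fam183b, Rhpn1 and Slc7a15, were all high in lucOS tumour 2 alone.

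LucOS tumour 2 was also high in hypoxia and immediate early genes. Vegfa, the vessel growth factor, read 3045 and 21639.7 with lucOS and 6704, 5111, 4939 and 3993 with luc. Slc2a1, a glucose transporter, read 724 and 5952 with lucOS and 1736, 1449, 1638 and 911 with luc. Jun read 3326 and 30112 with lucOS and 2813, 4371, 7614 and 3032 with luc. LucOS tumour 1 had the lowest value of Vegfa and Slc2a1. Dusp1, a phosphatase of MAP kinases, read 2119 and 7457 with lucOS and 1418, 1396, 3127 and 1153 with luc. For Dusp1 the difference was 1.28 (95% interval 0.18 to 2.39, unadjusted p = 0.027). The immediate early list had a median of 0.77 with none of 20 genes apart, and -0.53 without lucOS tumour 2. Glycolysis and hypoxia genes had a median of 0.34, and -0.41 without it. The lead of lucOS over luc in these lists thus came from 1 tumour.

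Luc tumour 1 stood out in fetal liver and imprinted genes. Dlk1, an imprinted membrane protein, read 52.2 and 58.6 with lucOS and 20738, 546, 47.4 and 126 with luc. Gpc3, glypican 3, read 225 and 299 with lucOS and 20174, 1026, 852 and 1087 with luc. Afp, α-fetoprotein, read 28542 and 1506 with lucOS and 279078, 10375, 65658 and 7674 with luc. Luc tumour 1 was highest in each, and for Gpc3 both lucOS tumours were the lowest. Prom1, the stem cell marker CD133, read 15.3 and 61 with lucOS and 4828, 248, 84.1 and 220.0 with luc. For Prom1 the difference was -3.61 (95% interval -6.78 to -0.43, unadjusted p = 0.03). H19 and Igf2, an imprinted pair at high level in all 6 tumours, overlapped at 1274303 and 1209796 against 896129 to 1460797 and 367737 and 464349 against 272534 to 587558. Of the fetal genes 1 of the 15 tested stood apart above the luc tumours and 2 below. Luc tumour 3 held Retnla and Alox15, genes of alternatively activated myeloid cells, at 85 against at most 2.77 and 183 against at most 9.24.

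Growth genes overlapped. Mki67, a marker of dividing cells, read 9829 and 4126 with lucOS and 16018, 5932, 4496 and 8006 with luc. Top2a read 6943 and 3124 against 3629.7 to 8369.6 and Pcna 6498 and 3933 against 4581 to 6744. None of 24 cell cycle genes stood apart. All 24 had a difference below 0, with a median of -0.28 that was 0.15 without lucOS tumour 2. Ribosome biogenesis and Myc target genes, with Ncl at 36807 and 32148 against 24577 to 58889.7 and Npm1 at 23921 and 29841 against 18937 to 46024, had a median of -0.079 and none of 22 apart. Of the p53 targets 2 of the 20 tested stood apart above the luc tumours and 0 below. Cdkn1a, the cell cycle inhibitor p21, read 4905 and 7847 with lucOS and 4784, 3571, 4700.3 and 2256 with luc. Tnfrsf10b, a death receptor, read 661 and 680.2 with lucOS and 301, 370.4, 440.4 and 523 with luc. These were the higher ones.

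In lipid metabolism a few genes stood higher. Insig1, which holds back cholesterol synthesis, read 21590.1 and 30928 with lucOS and 5801, 19865, 17635 and 13266 with luc, the 1 gene of 19 apart in fatty acid and sterol synthesis. The median of that list was 0.37. Scd1, the fatty acid desaturase, read 126059.5 and 63042 against 30594 to 96059, Fasn 96367 and 36354 against 39815 to 65189 and Hmgcs1 28543 and 24760.4 against 7836 to 28019.8. Of the fatty acid oxidation and PPARα target genes 3 of the 18 tested stood apart above the luc tumours and 2 below, with a median of 0.26. Plin2, a coat protein of lipid droplets, read 21129 and 24779 with lucOS and 11037, 13502, 19624 and 15069 with luc. Plin2 and Acot2 (1766 and 2122 against 507 to 1532) were among those above, while Cyp4a10 (2738 and 3093 against 3149 to 5441) and Vnn1 (253 and 245 against 289 to 1195) were below. Bile acid genes had a median of -0.17 and conjugation and Nrf2 target genes one of 0.19. Their most abundant members were Abcc2, an exporter of conjugates (37613 and 18727 against 18165 to 53278), and Gsta3, a glutathione transferase (66777 and 49847 against 36397 to 61853).

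Of the stress lists, the acute phase genes had a median of 0.047. Apcs, serum amyloid P, stood above at 1034 and 2498 with lucOS and 173, 578, 719 and 957 with luc. For Apcs the difference was 1.65 (95% interval 0.097 to 3.20, unadjusted p = 0.039). Orm2, an acid glycoprotein, stood below at 214 and 436 against 469 to 1412. Hp, haptoglobin, the most abundant, read 205301 and 158311 against 97075 to 225896. Unfolded protein response genes, led in level by the chaperone Hspa5 (47948 and 34266 against 30349 to 73528), had a median of 0.003 over 16 genes. Heat shock genes, led by Hspa8 (185027 and 91521 against 141299 to 167436), had one of -0.01 over 11. No member of these 2 lists stood apart.

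Ranked over all genes instead of lists, the 12 lower genes of lowest p with groups apart were mixed in function. Beside Glul, Slc1a2, Nkd1 and Mir8114 they included Slc16a10, a transporter of aromatic amino acids, which read 2686 and 2688 with lucOS and 8103, 4796, 6532 and 4919.6 with luc. For Slc16a10 the difference was -1.15 (95% interval -1.69 to -0.60, unadjusted p = 0.00075). Both lucOS tumours had nearly the same value. Mme, the peptidase neprilysin, read 10.2 and 32.4 with lucOS and 434, 387, 93.1 and 425 with luc. Pnliprp1, a relative of pancreatic lipase, read 9.21 and 2.49 with lucOS and 373, 166, 28.6 and 225 with luc. Luc tumour 3 was the lowest luc tumour for Mme and Pnliprp1, but stood above both lucOS tumours. Cdh1, E-cadherin, read 1571 and 1157 against 2309 to 7576, Fgf1, a growth factor, 351 and 426 against 669.6 to 1288, and Lin7a, a polarity protein, 22.5 and 24.9 against 86.2 to 1046. Slc22a3, an organic cation transporter, read 114 and 31.1 with lucOS and 626, 287, 457 and 289 with luc. Slc22a3 overlaps C030013G03Rik, Fgf1 overlaps Arhgap26, and Sds overlaps Plbd2, so reads may be shared within each pair.

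The 12 genes on the higher side were mixed in function and had narrower gaps. Suv420h2, a histone H4 methyltransferase, read 2004 and 3822 with lucOS and 1256, 1392, 1757 and 1287 with luc. For Suv420h2 the difference was 0.97 (95% interval 0.43 to 1.51, unadjusted p = 0.0022). Fabp4, a fatty acid carrier of fat cells, macrophages and capillaries, read 2148 and 6417 with lucOS and 835, 1746, 1809.9 and 1382 with luc. For Fabp4 the difference was 1.43 (95% interval 0.47 to 2.38, unadjusted p = 0.007). Slc39a14, an importer of zinc and iron, read 14095 and 19624 with lucOS and 11638, 10852, 9634 and 10389 with luc. For Slc39a14 the difference was 0.65 (95% interval 0.16 to 1.13, unadjusted p = 0.013). LucOS tumour 2 was the highest of the 6 in these. Without it the difference was 0.51 for Suv420h2, 0.64 for Fabp4 and 0.41 for Slc39a14. The same tumour was highest in Zbed5 (358 and 673 against 81.6 to 303), in H1fx, a linker histone (145 and 386 against 49.5 to 119), and in Spata24 (190.3 and 764 against 121 to 178). The same held for Nebl, an actin-binding protein (142 and 582 against 2.27 to 78.8), and Cyp46a1, a cholesterol hydroxylase (63.4 and 502 against 1.71 to 43). The 2 lucOS tumours were closer in Ppic (784 and 1015 against 236 to 598), Sccpdh (485 and 479.6 against 144 to 387), Plekha2 (743 and 764 against 184 to 504) and Itpkb, a kinase of inositol trisphosphate (838 and 1108 against 238 to 604). Luc tumour 3 was the nearest luc tumour in each of these 4.

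**Figure D4:**
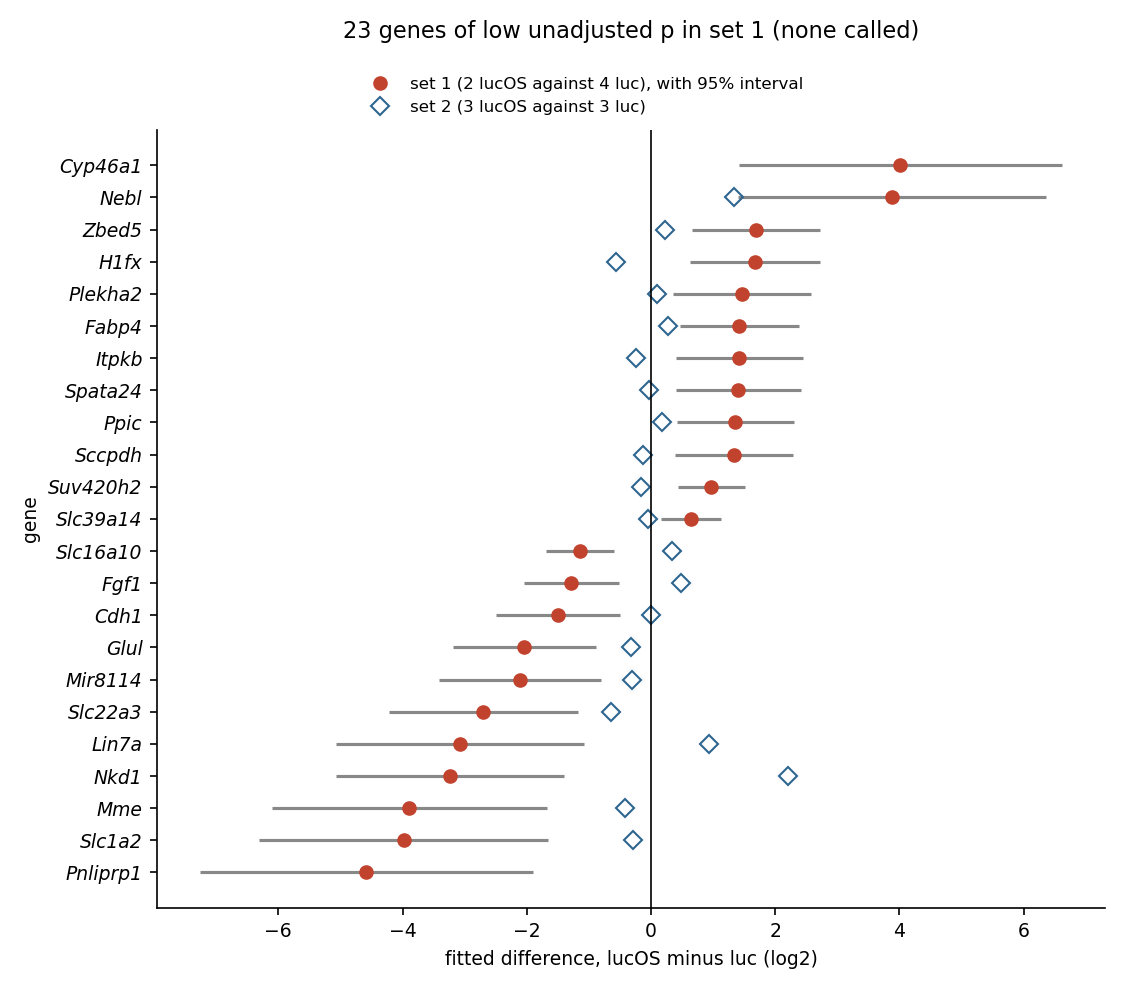
Fitted difference in log2 units (horizontal axis) for 23 genes, 12 higher and 11 lower with lucOS, of low unadjusted p among genes with groups apart and a mean of at least 50, with 95% intervals (grey lines) in set 1, and the fitted difference in set 2 (open diamonds; absent for Cyp46a1 and Pnliprp1, which were not tested there). The genes were chosen on the set 1 values. In set 2 the sign was the other one for 6 of 11 genes higher in set 1 and for 5 of 10 lower ones, farthest for Nkd1 (2.21).

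The same change of construct was measured in tumours with MYC and the construct labelled p53, 3 with lucOS and 3 with luc in the first set, which share no tumour with the comparison above. There limma called 0 genes, with 722 at an unadjusted p under 0.05 (4.48%) and groups apart in 1562 genes (9.7%). The test of the difference between the drivers, an interaction, called 0 as well, with 436 at an unadjusted p under 0.05 (2.71%). edgeR called 0 in both, with 768 and 595 at an unadjusted p under 0.05. The difference for Glul was 0.61 with p53, and the unadjusted p of its interaction 0.0036. That for Slc22a3 was 2.81, with 0.00011, at low values (17, 13.9 and 13.8 with lucOS and 1.36, 0 and 3.84 with luc). Neither interaction passed adjustment over all genes. Both genes were chosen on the β-catenin difference that the interaction contains, so these p-values are no separate evidence. List medians stood higher with p53 than here for the interferon γ genes (1.23 beside -0.33), the class II genes (1.23 beside -0.023) and the macrophage genes (1.09 beside -0.40). For T cell genes they were 0.29 and -0.26. Lists outside the immune system also stood higher with p53, among them the Wnt (0.78 beside -1.04), pericentral (0.96 beside -0.63) and P450 genes (0.88 beside -0.27). Others stood lower, among them the collagen (-0.084 beside 0.68) and immediate early genes (-0.28 beside 0.77). The differences between these medians were not tested.

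A second set held 3 lucOS and 3 luc tumours with MYC and β-catenin, scaled in a table of its own. limma called 0 of 15625 genes there, with 288 at an unadjusted p under 0.05 (1.84%), and edgeR 0 with 371. Groups stood apart in 709 genes (4.54%), 2.18% with lucOS above and 2.36% below. The sets shared little. Of the 194 genes at an unadjusted p under 0.05 in the first set and tested in the second, 101 (52.1%) had the same sign, beside 52.5% of all 15378 shared genes. Only 3 of them also had an unadjusted p under 0.05 with that sign. Across genes, which are not independent, the differences of the sets had a Pearson correlation of 0.032. Groups stood apart in both sets with the same direction in 9 genes above and 14 below, which is 2.47% of the 933 genes apart in the first set and tested in the second, and 3.32% of the 692 apart in the second and tested in the first. In 19 and 15 genes the directions were opposite.

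Glul, Slc1a2 and Nkd1, apart in the first set, overlapped in the second. Glul read 11956, 7394 and 13386 with lucOS and 17352, 11916 and 11239 with luc there, a difference of -0.32. Slc1a2 read 287, 100.3 and 1224 with lucOS and 886, 1140.3 and 63.9 with luc, a difference of -0.29. Nkd1 read 63.3, 72.1 and 1231 with lucOS and 75.2, 63 and 11.1 with luc, a difference of 2.21, with 1 lucOS tumour far above the other 5. Hbb-bs read 2492, 3850.1 and 2504 with lucOS and 1470.2, 1949.9 and 1833 with luc, and there lucOS stood above. The Wnt list had a median of 0.25 in the second set beside -1.04 in the first, and the pericentral list -0.30 beside -0.63. The periportal list had 0.44 beside -0.53, and the red blood cell list 0.77 beside -2.62. Medians of the 12 immune lists ran from -0.44 to 0.15 there. Ccl5 read 20.4, 27.4 and 19.7 with lucOS and 9.51, 12.6 and 52 with luc, a difference of 0.24, and overlapped in both sets.

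**Figure D5:**
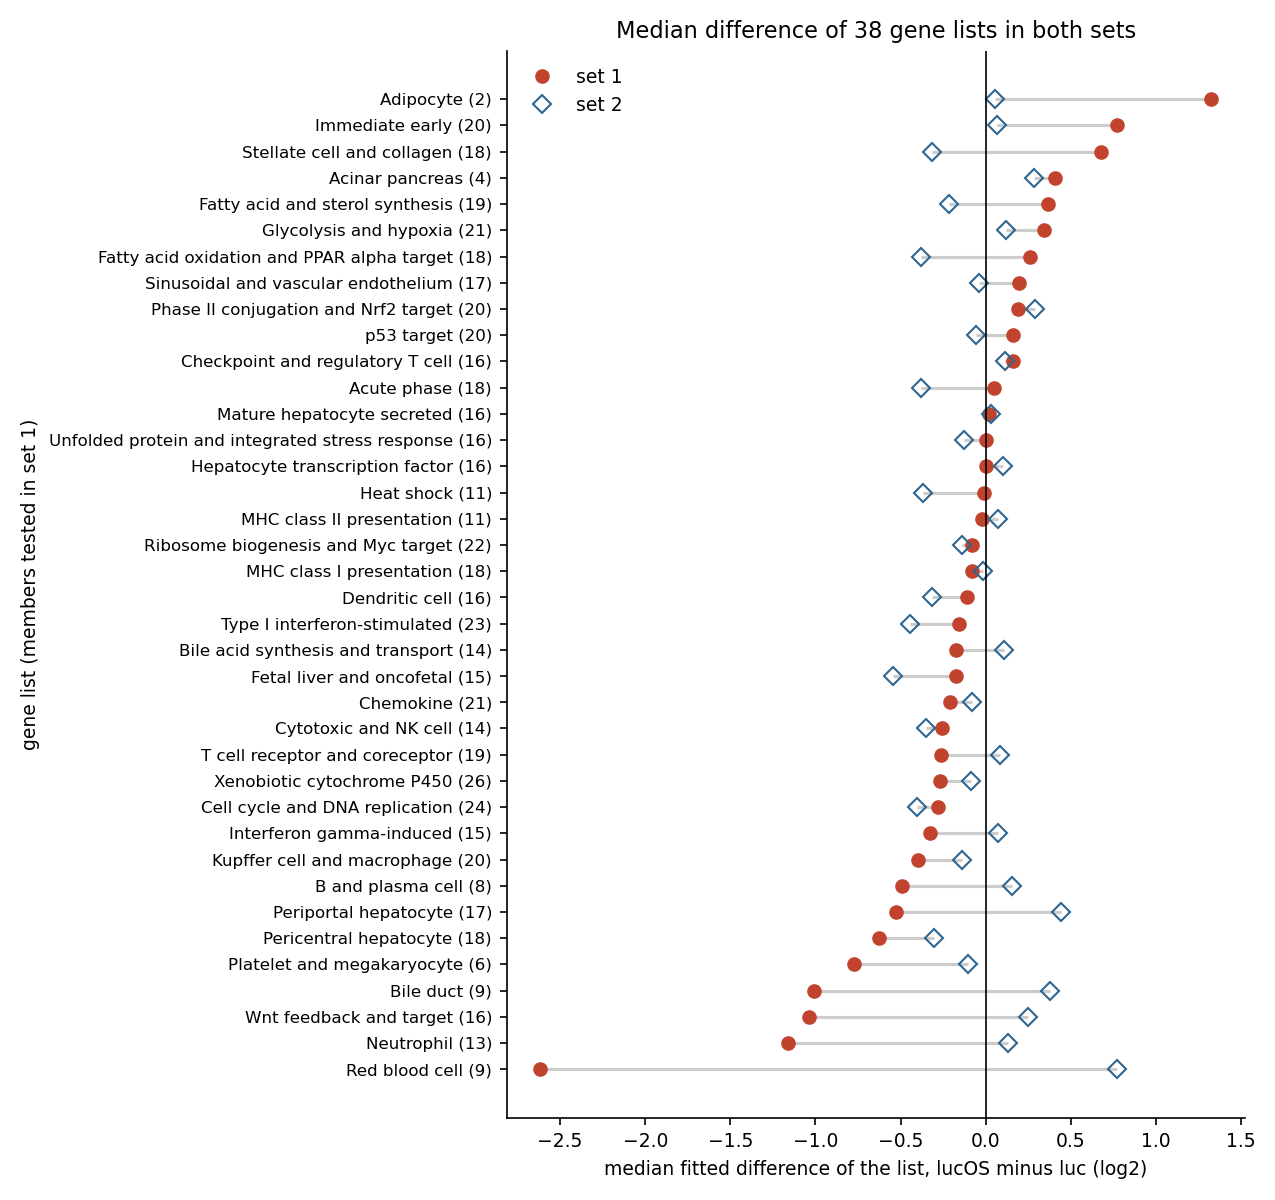
Median fitted difference (log2, lucOS minus luc) of 38 gene lists in set 1 (red circles) and set 2 (open blue diamonds), ordered by set 1, with the number of members tested in set 1 in parentheses. The red blood cell list is at -2.62 in set 1 and 0.77 in set 2, and the Wnt list at -1.04 and 0.25.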

How the data were processed

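RNA of 22 mouse liver tumours was sequenced from TruSeq libraries, per the labels' protocols; whether strand was kept is not given in the sources used here, so reads of overlapping and antisense genes cannot be told apart. The submitters' processing notes list TopHat2, featureCounts, DESeq2 and mm10. For each set the authors deposited 1 table of normalized signal. Every value, divided by the sample's smallest step, came out as a whole read (100% within 0.01 of a read). The first table held 33068 transcripts of 24063 genes, and the transcript of highest mean stood for its gene. Tables were scaled separately, and levels were not compared across them.

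Genes reaching 10 in 2 or more tumours (3 in set 2) were tested with limma 3.58.1 (trend option, R 4.3.3) on log2(value + 1), all tumours of a set in 1 two-sided fit, with Benjamini-Hochberg adjustment over all genes. This scale understates the change of low genes. edgeR 4.0.16 and DESeq2 1.42.0 on the recovered reads, other scalings, pseudocounts and filters, and leaving out each tumour were the alternatives. The code was tested on simulated data. Groups came from genotype labels, and tumour numbers follow the order of the records. The members and the 38 gene lists were chosen with earlier results of these data known. Named by rule were Myc, Ctnnb1, Trp53, Ccl5, the 12 genes per direction of lowest unadjusted p with groups apart and a mean of at least 50, and the 3 most abundant members of a list; some genes are not reported here, and other genes were chosen after their values were seen. Positions are from RefSeq on GRCm38.p6.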

Additional observations from a re-analysis of the deposited data

Results flagged for a closer look

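In 11 of the 60 genes examined, 1 luc tumour lay far from the other 3, past Dixon's 95% critical value for 4 samples. For normally distributed values of genes picked beforehand, chance alone would mark about 1 in 20 groups. Here the ratio was taken on normalized counts, not on log2 values. Some genes were also picked after their values were seen, so that rate need not hold. Luc tumour 3 was the outlying one for 6 of them: it was lowest for Trp53 (3689), Nkd1 (159) and Mme (93.1) and highest for Sccpdh (387), Lin7a (1046) and Dusp1 (3127). Luc tumour 1 was highest for Slc13a3 (6997), Abcc3 (25239) and Prom1 (4828), and luc tumour 2 for Mpo (149) and Slc4a1 (1427). In Nkd1 and Mme the outlying tumour was the luc tumour nearest to the lucOS group, and in Lin7a the one farthest from it.

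The globin genes Hba-a1 (a difference of -2.64 in the first set and 0.81 in the second) and Hbb-bs (-2.19 and 0.73) had separated groups in both sets, in opposite directions. The difference between the sets was not tested.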

How the results depend on the processing

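The count of genes called was 0 under TMM scaling, median centring, pseudocounts of 0.5 and 10, a filter at 50, the 6 tumours alone, the sum over transcripts, edgeR and each tumour left out. It was 18 in DESeq2 (6 higher and 12 lower), 1 (lower) without a filter and 1 (lower) in limma without the trend option. The number of genes at an unadjusted p under 0.05, 222 as reported, was 995 without lucOS tumour 1, 376 without lucOS tumour 2 and 644 without luc tumour 3, and between 151 and 180 without each other luc tumour; with 1 lucOS tumour left, it is assumed to vary like the other groups. Of the 60 genes for which a difference was examined, 8 changed sign somewhere, none of them called in any setting. With tumours left out in turn, Myc ran from -1.34 to 1.40, Ctnnb1 ran from -0.15 to 0.30, Trp53 ran from -0.43 to 0.17, Cd8a ran from -0.11 to 0.60, Gzmb ran from -0.51 to 0.27, Cxcl9 ran from -0.59 to 0.23, H2-K1 ran from -0.25 to 0.12, H2-Aa ran from -0.12 to 0.47. Leaving out 1 tumour moved the difference by over 1.5 times in 32 of the 60 genes: in 20 without lucOS tumour 1, 25 without lucOS tumour 2, and 6 to 9 without a luc tumour. Myc was -0.01 under centring, and H2-Aa was -0.045 in DESeq2 and -0.043 in edgeR. Of the 38 list medians, 25 changed sign under at least 1 alternative. The medians of the red blood cell, Wnt, pericentral, periportal and P450 lists stayed below 0 under every alternative run. So did those of the cytotoxic and NK cell, B and plasma cell, interferon γ, bile duct and fetal lists. Of 7 adipocyte genes 2 were tested, and Adipoq and Lep read 0 in all 6 tumours. The median of those 2 genes stayed above 0. So did the medians of the fatty acid and sterol synthesis and fatty acid oxidation lists. The cause was not tested. The second set's and the p53 comparisons' counts, and that of the interaction, were 0 under TMM scaling and in edgeR. No paired analysis was made, since the labels tie no lucOS tumour to a luc tumour.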
